A study of Mus musculus with 2 samples.

Results

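The guanylate-binding protein (Gbp) genes of the mouse were followed across lung cell classes and between a pair of libraries. The members were the 9 rows with the symbols Gbp2, Gbp2b, Gbp3, Gbp4, Gbp5, Gbp6, Gbp7, Gbp8 and Gbp9, out of 32286 measured features. Lungs came from BALB/c mice inoculated in the mammary fat pad with 4T1 cells, a transplantable mouse mammary carcinoma line that spreads to the lung, and were taken on day 14. Mice given the S100A4-11 antibody provided 1 library and mice given an IgG antibody the other. Mice of both groups carried the 4T1 tumour, and the labels give neither a tumour-free lung nor the number, age or sex of the animals. Each group therefore had 1 library (n = 1), no test was made, and no difference below has a replicate check. The droplet assay (10x Genomics, 5′ end) reads RNA near the start of a transcript and counts UMIs, tags that mark single captured molecules.

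The S100A4-11 library kept 11750 cells and 58863966 UMIs, and the IgG library 13658 cells and 78928829 UMIs, at median depths of 3661 and 4028 UMIs per cell. Cells fell into 36 clusters, which were gathered into classes by marker genes, each written "-like" since no protein or lineage was measured, and 5 clusters stayed unnamed. Levels were read in 14 classes with at least 50 cells in each library, and library ratios in the 13 with at least 100. As a check of the lung label, the alveolar surfactant gene Sftpc reached 169582 and 128362 CPM in alveolar type 2-like cells of the S100A4-11 and IgG libraries. No cluster took a carcinoma name. Levels are CPM, the UMIs of a gene per 1000000 UMIs of all cells of the class. Ratios are S100A4-11 over IgG. Ranges in parentheses are exact 95% intervals and cover counting error only. A member was counted as lower or higher at a ratio of at least 1.5-fold in a class where it had at least 50 UMIs over both libraries. The libraries shared 247 cell barcode sequences among the kept cells, and what changed without them is given with the limits.

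Gbp genes encode large GTPases of the dynamin superfamily. Interferons, above all interferon-gamma, induce them in many cell types. The proteins assemble on bacteria and on vacuoles that hold pathogens, where they work with the immunity-related GTPases and help to trigger inflammasomes. Human GBP1 has also been studied in endothelial cells, where it slows proliferation. Mouse Gbp5 promotes assembly of the NLRP3 inflammasome, and mouse Gbp7 takes part in NADPH oxidase assembly and autophagy in macrophages. Gbp2b is the gene formerly called Gbp1.

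The members lie in a pair of gene clusters in the GENCODE M21 annotation of GRCm38. On chromosome 3, on the plus strand, Gbp5, Gbp7, Gbp3, Gbp2b and Gbp2 follow one another between 142493978 and 142638008. On chromosome 5, on the minus strand, Gbp8, Gbp9, Gbp4 and Gbp6 lie between 105014150 and 105293698, with the non-member Gbp10 between Gbp4 and Gbp6. All 9 are protein-coding. The annotated spans of Gbp8 (to 105139540), Gbp9 (to 105139539) and Gbp4 (to 105139586) overlap and begin within the same stretch at their 5′ end, where a 5′ assay reads. Of the 50-base windows in Gbp6 transcripts, 48.4% also occur in another Gbp gene, mostly in Gbp10. The shares are 16.7% for Gbp8, 7.44% for Gbp9 and 6.28% for Gbp4, and at most 3.75% for members on chromosome 3. How the counting divided reads between such copies is not given in the sources used here, so values of Gbp6, Gbp8, Gbp9 and Gbp4 are less certain than those of the chromosome 3 members.

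Upstream sequence is shown for the chromosome 3 members because interferon-induced genes are often controlled through a pair of short elements close to the start of transcription. The interferon-stimulated response element was searched as GAAA and GAAA parted by any 2 bases, and the gamma-activated site as TTCNNNGAA, both on both strands. RefSeq promoter entries in build GRCm38.p6 matched 5 members, with 6 windows of the 250 bases before a start, all on the plus strand. Gbp3 has a pair of annotated starts, and its other window, chr3:142560106-142560355, held neither motif. Capitals mark the motif matches.
Gbp2 chr3:142620413-142620662: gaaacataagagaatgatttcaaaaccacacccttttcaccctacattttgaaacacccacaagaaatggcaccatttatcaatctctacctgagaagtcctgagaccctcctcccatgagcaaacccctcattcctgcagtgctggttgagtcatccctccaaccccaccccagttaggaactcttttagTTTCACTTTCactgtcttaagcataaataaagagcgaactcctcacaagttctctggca
Gbp2b chr3:142594597-142594846: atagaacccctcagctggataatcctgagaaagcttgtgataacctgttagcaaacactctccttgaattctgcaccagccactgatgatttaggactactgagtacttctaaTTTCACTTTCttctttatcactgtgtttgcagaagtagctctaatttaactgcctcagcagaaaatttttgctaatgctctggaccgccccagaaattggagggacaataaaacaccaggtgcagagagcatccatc
Gbp3 chr3:142559794-142560043: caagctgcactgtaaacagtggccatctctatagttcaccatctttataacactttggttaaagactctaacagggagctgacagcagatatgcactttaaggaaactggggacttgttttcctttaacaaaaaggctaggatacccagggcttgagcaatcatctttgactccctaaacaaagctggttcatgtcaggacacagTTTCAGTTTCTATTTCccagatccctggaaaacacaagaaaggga
Gbp5 chr3:142496684-142496933: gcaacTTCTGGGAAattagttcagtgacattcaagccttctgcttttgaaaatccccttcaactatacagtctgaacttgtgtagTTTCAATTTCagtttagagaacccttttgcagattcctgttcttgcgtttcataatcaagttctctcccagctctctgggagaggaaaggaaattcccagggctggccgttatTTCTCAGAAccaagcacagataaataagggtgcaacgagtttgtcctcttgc
Gbp7 chr3:142530086-142530335: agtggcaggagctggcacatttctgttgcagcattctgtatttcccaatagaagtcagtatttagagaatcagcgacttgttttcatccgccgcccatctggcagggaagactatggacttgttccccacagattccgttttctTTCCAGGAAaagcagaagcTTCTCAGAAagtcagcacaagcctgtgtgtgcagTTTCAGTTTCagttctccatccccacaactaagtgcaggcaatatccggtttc
The response element motif was found in 5 of the 6 windows, once in Gbp2, Gbp2b, Gbp5 and Gbp7 and as 2 overlapping matches in Gbp3. Its first base lay 59 bases before the start in Gbp2, 53 in Gbp7 and 45 in Gbp3, but 137 in Gbp2b and 165 in Gbp5. Of 32851 RefSeq windows of the same length, 2.98% held this motif. The gamma-activated motif was found in 2 windows, with 2 matches each in Gbp5 and Gbp7, and in 7.02% of all windows. A match describes letters only and shows no binding.

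Endothelial-like cells held the highest summed level of the family in both libraries, 639 CPM with S100A4-11 and 904 CPM with IgG. Next in the S100A4-11 library came T cell-like cells (458 and 477 CPM), neutrophil-like cells (378 and 619 CPM), cells like pericytes or smooth muscle (332 and 487 CPM) and NK cell-like cells (309 and 336 CPM). In the IgG library neutrophil-like and pericyte or smooth muscle-like cells stood above T cell-like cells. Nonclassical monocyte-like cells had 227 and 306 CPM, classical monocyte-like cells 168 and 247 CPM, and B cell-like cells 137 and 133 CPM. The lowest sums were those of alveolar macrophage-like cells, 65.9 and 88.8 CPM, and of alveolar type 2-like cells in the S100A4-11 library, 56.5 CPM. The order of classes had a Spearman rho of 0.877 between the libraries over 14 classes, as a description. Of 13 pairs of neighbours in that order, 7 overlapped in their counting intervals in the S100A4-11 library and 8 in the IgG library.

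**Figure D1:**
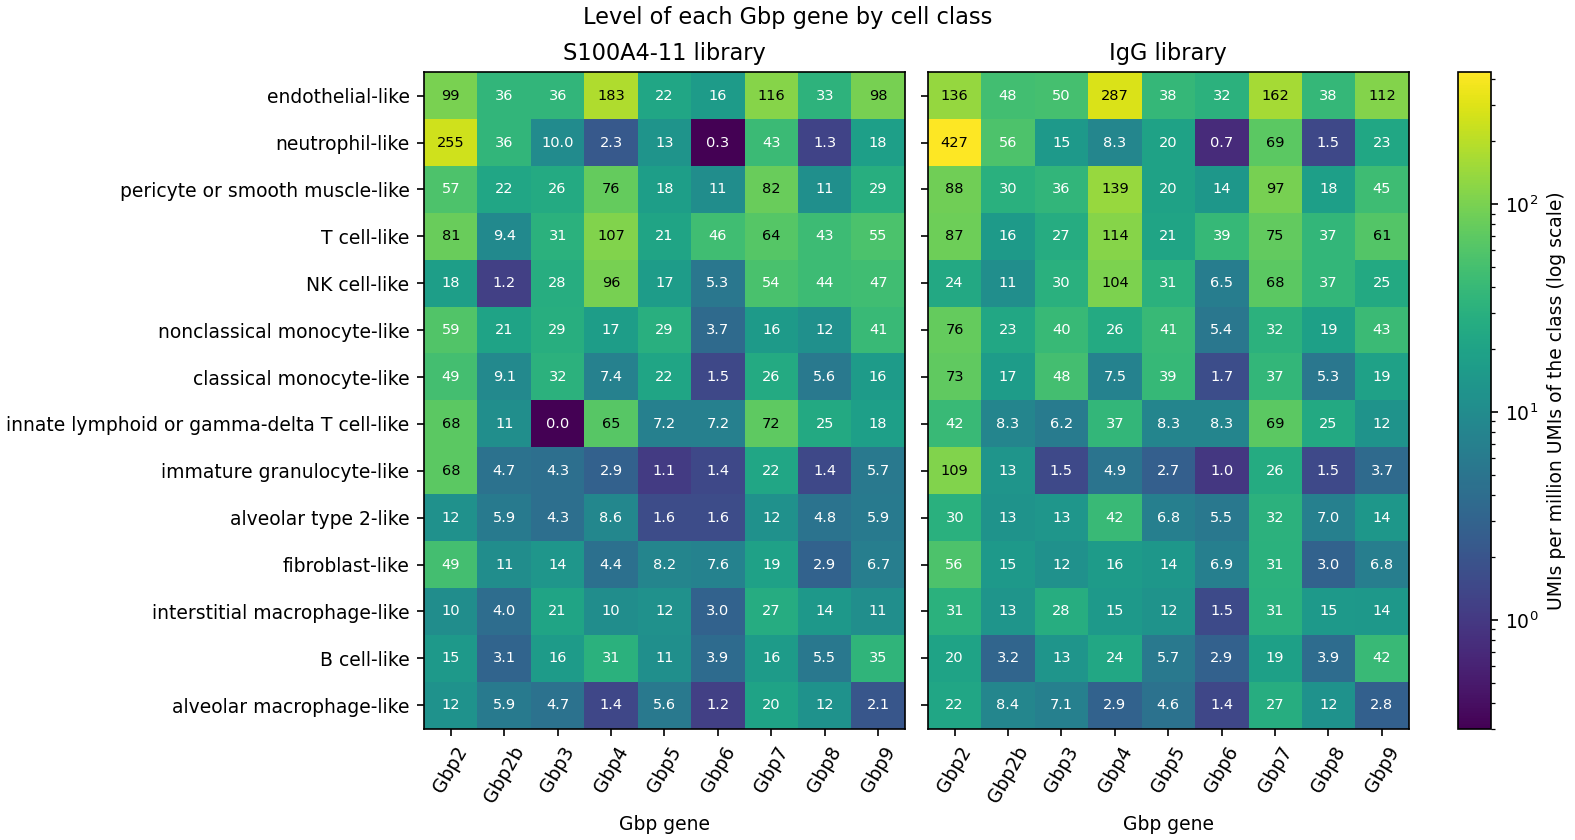
Level of each of the 9 Gbp genes (columns) in 14 cell classes (rows) in the S100A4-11 library (left) and the IgG library (right), in UMIs per 1000000 UMIs of the class on a log colour scale with the level printed in each cell. Gbp2 was highest in neutrophil-like cells, Gbp4, Gbp7 and Gbp9 in endothelial-like cells and Gbp6 in T cell-like cells in both libraries.

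The members differed in the class where each was highest. Gbp2, a GTPase that coats pathogen vacuoles, was highest in neutrophil-like cells, at 255 and 427 CPM in the S100A4-11 and IgG libraries. Endothelial-like cells came next for Gbp2, at 98.8 and 136 CPM, apart from neutrophil-like cells in their counting intervals. It made up 67.4% and 68.9% of the family's UMIs in neutrophil-like cells, against 15.5% and 15.1% of them in endothelial-like cells. Gbp2b followed a similar order, with 35.6 and 55.9 CPM in neutrophil-like cells and 36.1 and 47.8 CPM in endothelial-like cells.

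Gbp4 was highest in endothelial-like cells, at 183 and 287 CPM. It had 107 and 114 CPM in T cell-like cells and 95.6 and 104 CPM in NK cell-like cells. Cells like pericytes or smooth muscle had 76.3 and 139 CPM of Gbp4. Endothelial RNA could bring 62.5 and 129 CPM of that, as described below. In alveolar macrophage-like cells it had 1.41 and 2.94 CPM, the lowest of the 14 classes. A Gbp4 UMI was found in 36.7% of endothelial-like cells with S100A4-11 and 45.4% with IgG, at median depths of 3230 and 3358 UMIs. The lowest shares were 0.678% in neutrophil-like cells with S100A4-11, at a median depth of 3554 UMIs, and 1.88% in alveolar macrophage-like cells with IgG, at a median depth of 8343 UMIs. A share at or below these was not read as expression.

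Gbp6 was highest in T cell-like cells, at 45.7 and 38.9 CPM, followed by endothelial-like cells at 16.2 and 32.4 CPM. The T cell-like and endothelial-like levels were apart in the S100A4-11 library and overlapped in the IgG library. Gbp10, which shares windows with Gbp6, was likewise highest in T cell-like cells in the S100A4-11 library (9.95 CPM) and in endothelial-like cells in the IgG library (9.55 CPM). In NK cell-like cells Gbp8 had 44.2 and 36.9 CPM. It had 43.3 and 37.4 CPM in T cell-like cells and 32.8 and 38.2 CPM in endothelial-like cells. Its T cell-like and endothelial-like levels were apart in the S100A4-11 library and overlapped in the IgG library. It was near 0 in neutrophil-like cells (1.28 and 1.46 CPM). Gbp9 had 97.5 and 112 CPM in endothelial-like cells, 54.6 and 61.0 CPM in T cell-like cells and was the member with most UMIs in B cell-like cells (145 and 116).

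Gbp5 was highest in nonclassical monocyte-like cells, at 29.0 and 40.7 CPM. It was lowest in immature granulocyte-like cells, at 1.07 and 2.71 CPM. All 13 pairs of neighbours in its order of classes overlapped in their counting intervals in either library. That comparison covers neighbours only, not classes further apart in the order. Classical monocyte-like cells had 21.8 and 39.0 CPM of Gbp5 and endothelial-like cells 21.9 and 38.4 CPM. Gbp3 was highest in endothelial-like cells (36.1 and 49.9 CPM), close to classical monocyte-like cells (32.1 and 48.3 CPM). Gbp7 was measured at 50 UMIs or more in all 13 classes, with 116 and 162 CPM in endothelial-like cells. Its lowest level was 11.8 CPM in alveolar type 2-like cells with S100A4-11 and 18.6 CPM in B cell-like cells with IgG.

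Across the 14 classes, the log2 levels (CPM plus 1, mean of both libraries) gave a pattern for each member. Gbp2 and Gbp2b had a Pearson r of 0.84, Gbp3 and Gbp5 of 0.89, and Gbp4 and Gbp6 of 0.87. Gbp4 had 0.82 with Gbp9 and 0.76 with Gbp8, but 0.05 with Gbp2. These points share 2 libraries and their free RNA, and shared reads between Gbp4, Gbp6, Gbp8 and Gbp9 enter them. Among 7316 genes with at least 50 CPM in a class, the pattern of Gbp2 was most like those of Rtp4 (r = 0.92), a type I interferon target, AW011738 (0.90) and Isg15 (0.85), an interferon-induced ubiquitin-like modifier. The pattern of Gbp9 was most like those of the MHC class I genes H2-Q4 (0.94), H2-Q1 (0.92) and H2-T23 (0.90). Gbp4 was nearest to Arap2 (0.94), Smad7 (0.93) and Sigirr (0.91), and Gbp7 to Itpkb (0.89), Pitpnc1 (0.89) and Ifi47 (0.82), an interferon-inducible GTPase of the related family.

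Between the libraries the family was lower with S100A4-11 in myeloid, endothelial and stromal classes and nearly level in B, T and NK cell-like cells. The summed level was 1.5-fold lower or more in 2 of 13 classes, alveolar type 2-like (0.346) and neutrophil-like (0.610, 0.583 to 0.637). Of all measured genes, 16.3% and 5.62% were that much lower in these classes. The family sum in neutrophil-like cells stood at 0.667 with doublets kept, 0.671 with every barcode kept and 0.707 with each library clustered alone, short of 1.5-fold. The sum had an interval wholly below 1 in 8 further classes, with ratios of 0.680 to 0.758. In T cell-like cells the ratio was 0.959 (0.895 to 1.03), in NK cell-like cells 0.918 (0.809 to 1.04) and in B cell-like cells 1.03 (0.902 to 1.18). Whether the ratio differs between classes was not tested. Over all cells together the sum was 335 and 467 CPM, a ratio of 0.718, in libraries that also differed in cell mix. There 1 of 9 members was lower past the fold, where 8.46% of genes were, and none higher, where 3.02% were.

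Of the 117 pairs of member and class, 92 reached 50 UMIs. In these, 36 pairs were lower by 1.5-fold or more with S100A4-11, where 5.38% of all 114953 measured pairs of gene and class were, and 2 were higher, where 2.43% of all pairs were. Members share their cells, libraries and, in part, reads, so the pairs are not independent. Under every alternative processing that gave a value, 14 of the 36 lower pairs stayed past the fold. In 6 of these 14, all in alveolar type 2-like, fibroblast-like and pericyte or smooth muscle-like cells, endothelial RNA could make up at least 50% of the level, as described below. The other 8 were Gbp5 and Gbp6 in endothelial-like cells, Gbp2b in T cell-like, immature granulocyte-like and alveolar type 2-like cells, Gbp5 in fibroblast-like cells, Gbp7 in nonclassical monocyte-like cells and Gbp2 in interstitial macrophage-like cells. None of the lower pairs in neutrophil-like or classical monocyte-like cells stayed past the fold in this way, and neither of the 2 higher pairs did. Among the 8 pairs named, Gbp2b in alveolar type 2-like cells lay close below the 50%, at 40.9% and 47.7%. Neutrophil RNA was not part of this count, and could make up 44.6% and 20.7% of Gbp2 in interstitial macrophage-like cells. Gbp2, Gbp2b and Gbp7 had ratios below 1 in each of the myeloid and endothelial classes where they reached 50 UMIs, between 0.333 and 0.882.

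**Figure D2:**
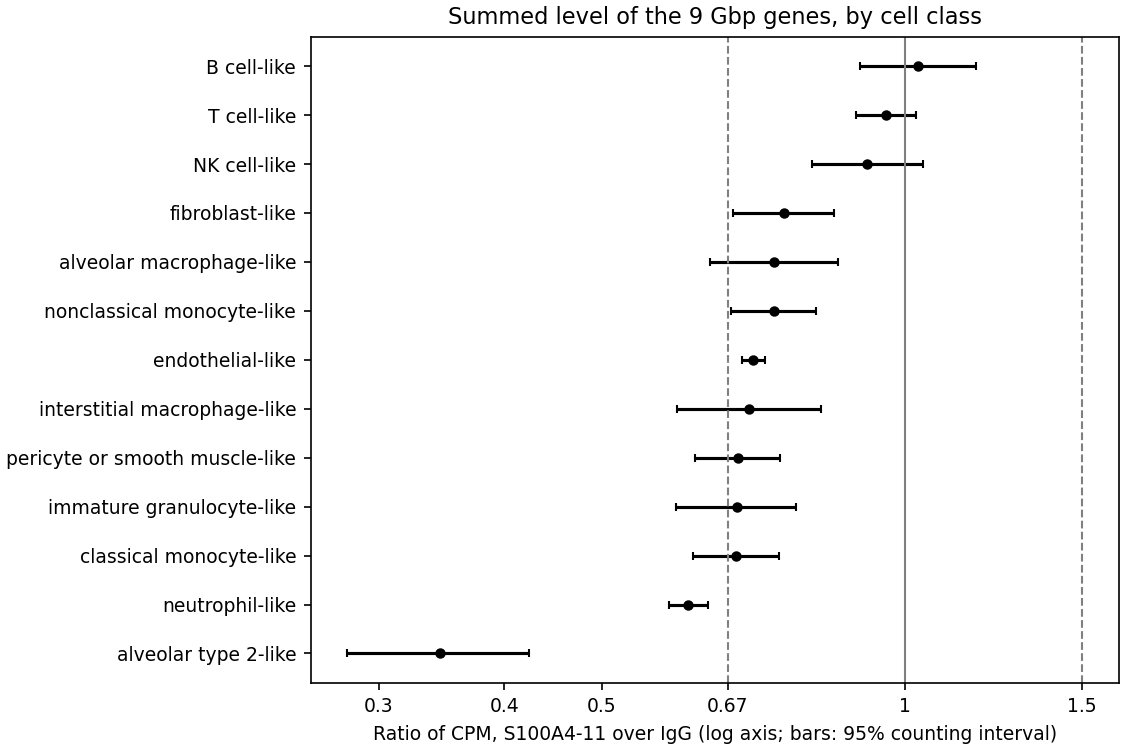
Ratio of the summed level of the 9 Gbp genes, S100A4-11 over IgG, on a log axis, in 13 cell classes; points are ratios, bars exact 95% counting intervals, the solid line marks 1 and the dashed lines 1.5-fold either way. B, T and NK cell-like cells lie at 1.03, 0.959 and 0.918, and the other 10 classes lie between 0.346 and 0.758.

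In endothelial-like cells all 9 members were lower in the S100A4-11 library, where 53.0% of measured genes had a ratio below 1. All 9 had intervals below 1, and the share of genes with such an interval was not computed. Of the 9, 3 passed 1.5-fold, in a class where 4.00% of 12285 measured genes were that much lower, and none was that much higher, where 1.40% were. The median log2 ratio of the members was -0.46, against -0.01 over all measured genes of the class. Gbp6 had 16.2 CPM with S100A4-11 and 32.4 CPM with IgG, the lowest ratio of the 9, with an interval of 0.427 to 0.584. Gbp5 had a ratio of 0.570 (0.497 to 0.653) and Gbp4 of 0.639 (0.609 to 0.6701), and these 3 members lie on both chromosomes. Gbp4 in endothelial-like cells missed the fold with every cell weighing the same (0.678). Gbp9 (0.868, 0.810 to 0.930) and Gbp8 (0.857, 0.760 to 0.965) were nearest to 1, and the other 4 members had ratios of 0.719 to 0.756. Cells with UMIs of at least 2 members made up 45.5% with S100A4-11 and 52.8% with IgG.

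The difference was present in each of the 3 named sub-classes of endothelial-like cells. A further endothelial-like cluster of 312 and 589 cells took no sub-class name and is not among them. The sum was 684 and 990 CPM in general capillary-like cells (ratio 0.691), 468 and 689 CPM in the gas-exchange capillary cells called aerocytes (0.679), and 774 and 1150 CPM in large-vessel-like cells (0.673). Gbp4 had ratios of 0.625, 0.618 and 0.596 in these 3 groups. By cluster the difference was uneven. Among the 6 endothelial-like clusters the sum had ratios of 0.555 to 0.933, and the ratios nearest to 1 were those of the 2 shallowest clusters, with median depths of 2041 and 859 UMIs (0.867, 0.796 to 0.944, and 0.933, 0.769 to 1.13).

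**Figure D3:**
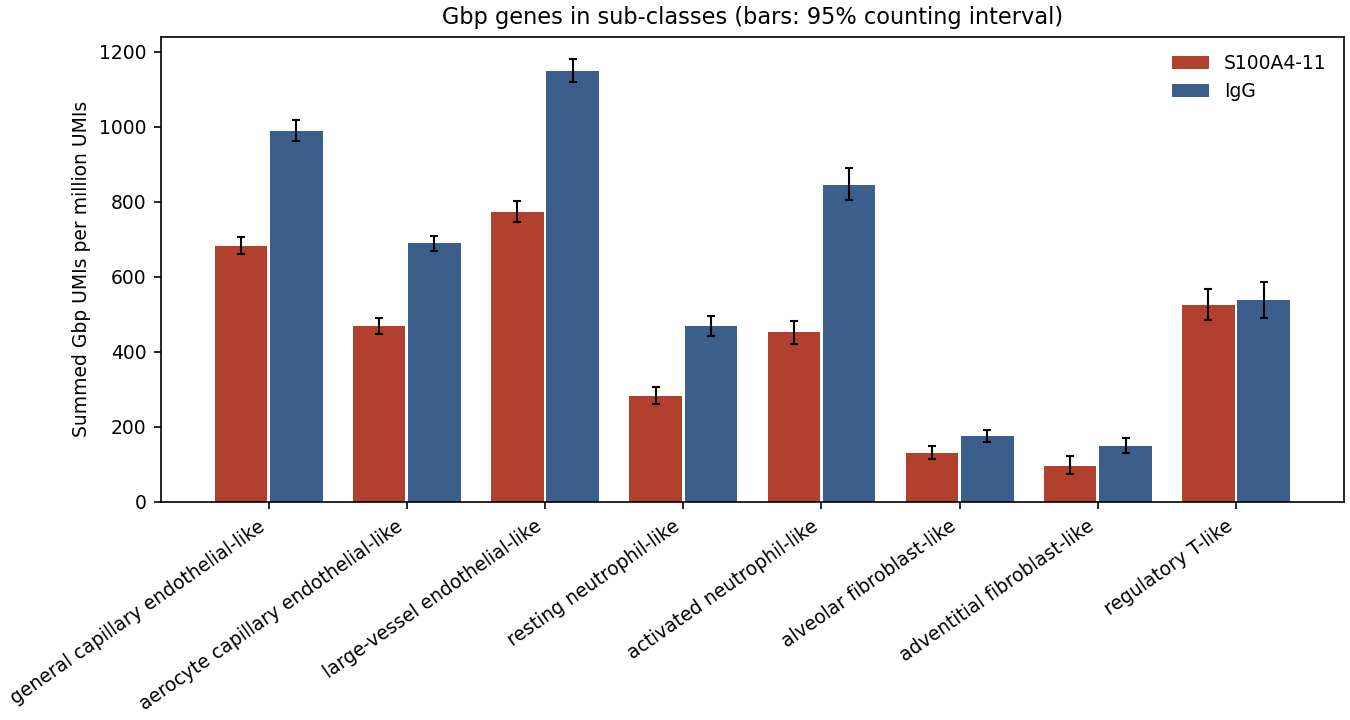
Summed level of the 9 Gbp genes, in UMIs per 1000000 UMIs, in 8 sub-classes, with S100A4-11 (red, left bar of each pair) and IgG (blue, right bar); error bars are exact 95% counting intervals. The S100A4-11 bar is lower in the 3 endothelial, both neutrophil and both fibroblast sub-classes. Alveolar fibroblast-like cells had 130 and 176 and adventitial fibroblast-like cells 97.1 and 150. In regulatory T-like cells the bar is nearly level with IgG (525 and 538).

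Neutrophil-like cells also had less of the family with S100A4-11, most of it Gbp2. Of the 7 members with 50 UMIs, all had a ratio below 1, where 48.5% of 7526 measured genes did. All 7 had an interval below 1, and the share of genes with such an interval was not computed. Of these 7 members, 6 passed 1.5-fold, in a class where 5.62% of the measured genes were that much lower. None was that much higher, where 2.13% of genes were. Gbp6 (2 and 7 UMIs) and Gbp8 (10 and 14 UMIs) were too low to read. Gbp2 had 255 CPM with S100A4-11 and 427 CPM with IgG, a ratio of 0.597 (0.566 to 0.630). A Gbp2 UMI was found in 43.6% and 56.4% of the cells, and in 10.2% and 15.7% after each cell was thinned to 500 UMIs. Gbp7 (0.618, 0.540 to 0.706), Gbp2b (0.638, 0.550 to 0.738), Gbp3 (0.642, 0.482 to 0.850) and Gbp5 (0.659, 0.512 to 0.844) had ratios close to that of Gbp2. These ratios lie near the fold, and over the alternatives the highest ratio was 0.694 for Gbp2, 0.714 for Gbp7, 0.723 for Gbp2b, 0.810 for Gbp3 and 0.775 for Gbp5. Gbp9, at 18.1 and 22.6 CPM, had a ratio of 0.803 (0.645 to 0.997). Gbp4, at 0.276 (0.156 to 0.465), rested on 18 and 80 UMIs. Endothelial RNA could make up 53.4% and 41.8% of its level, as described below. Its share of cells with S100A4-11 was not read as expression, as said above. Activated neutrophil-like cells had sums of 452 and 846 CPM (0.534) and resting neutrophil-like cells 284 and 469 CPM (0.605). The difference between those ratios was not tested. Other neutrophil-like clusters took no sub-class name and are not in these sums.

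In classical monocyte-like cells 7 members reached 50 UMIs and 4 were lower by 1.5-fold or more, where 2.46% of 8350 measured genes were, and none was higher, where 2.35% were. The 4 were Gbp2b (0.546, 0.356 to 0.826), Gbp5 (0.560, 0.427 to 0.729), Gbp2 (0.664, 0.552 to 0.796) and Gbp3 (0.664, 0.529 to 0.832). Over the alternatives their highest ratios were 0.796, 0.686, 0.794 and 0.798, in the same order, all short of the fold. Gbp4 stood at 7.35 and 7.46 CPM and Gbp9 at 16.4 and 19.0 CPM, both with intervals that include 1. Shares of cells with a Gbp2 UMI were 24.3% and 34.5%, at median depths of 9063 and 10468 UMIs. After thinning they were 3.20% and 2.59%, in the reverse order. Such shares rest on few cells, and no order was read from them. In nonclassical monocyte-like cells 3 of 8 members were that much lower, where 4.63% of measured genes were, and none higher, where 2.27% were. Gbp7 had the lowest ratio at 0.490 (0.343 to 0.692). Its level was 15.9 CPM with S100A4-11 and 32.5 CPM with IgG.

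**Figure D4:**
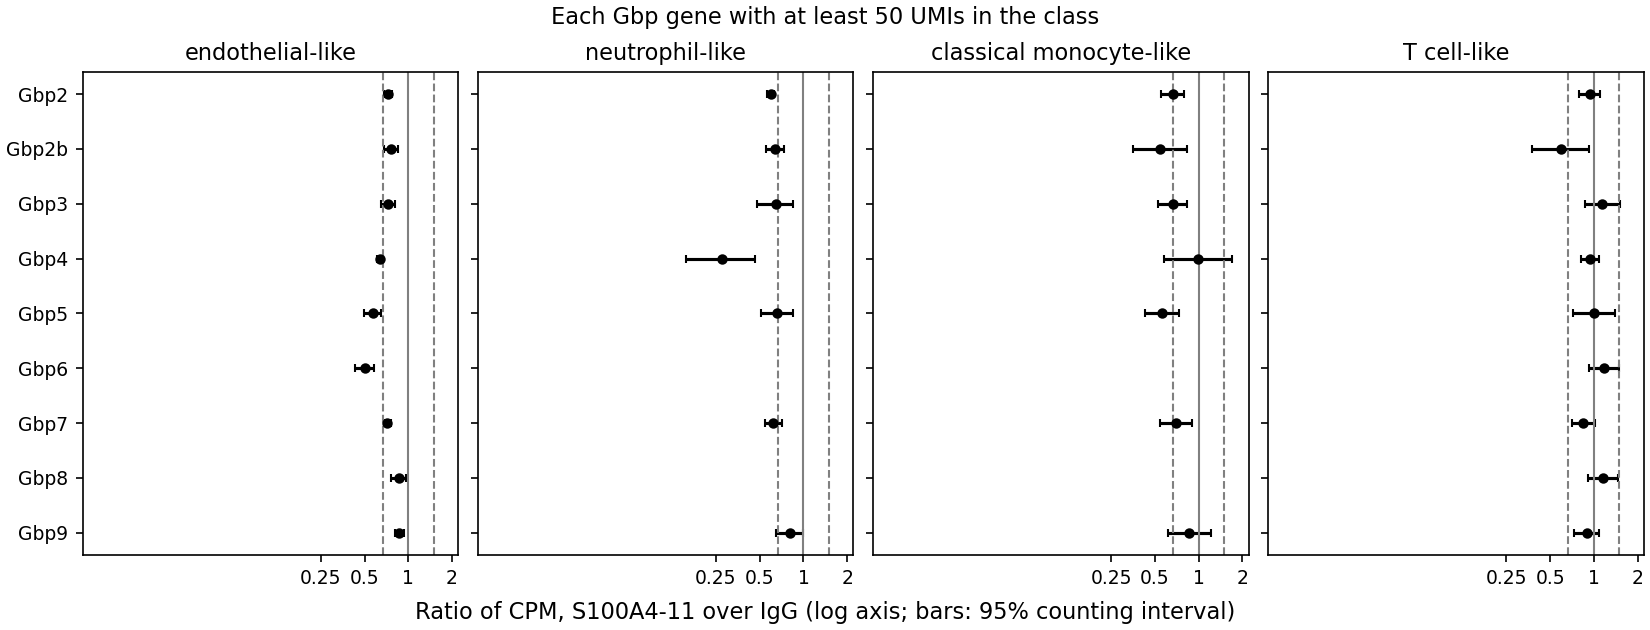
Ratio of each Gbp gene with at least 50 UMIs, S100A4-11 over IgG, on a log axis, in endothelial-like, neutrophil-like, classical monocyte-like and T cell-like cells; points are ratios, bars exact 95% counting intervals, the solid line marks 1 and the dashed lines 1.5-fold either way. All points lie below 1 in the first 3 panels, and in T cell-like cells they lie on both sides of 1 with Gbp2b lowest at 0.594.

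Immature granulocyte-like and macrophage-like cells had 1 or 2 members lower past the fold. In immature granulocyte-like cells Gbp2 had 68.4 and 109 CPM (0.625, 0.525 to 0.742) and Gbp2b 4.65 and 13.3 CPM (0.350, 0.175 to 0.649), 2 lower of 3 measured where 3.31% of genes were, and none higher where 5.07% were. In interstitial macrophage-like cells Gbp2 alone of 7 was lower past the fold, where 4.05% of genes were, and none higher, where 3.22% were. It stood at 10.4 and 31.4 CPM (0.333, 0.196 to 0.544). Scaled by S100a8 and S100a9, neutrophil RNA would bring 4.65 and 6.48 CPM of Gbp2 into these cells, and scaled by 6 endothelial genes, endothelial RNA would bring 1.65 and 3.24 CPM. Their part in the ratio was not tested. In alveolar macrophage-like cells 2 of 6 were lower, where 4.22% of genes were, and none higher, where 1.52% were. They were Gbp2 at 0.560 (0.399 to 0.775) and Gbp3 at 0.660 (0.370 to 1.14). That Gbp3 value, from 4.70 and 7.13 CPM, has an interval that includes 1 and turned to 1.23 with every cell weighing the same. Gbp2 reached 0.737 over the alternatives.

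Lymphoid classes held the family close to the same level in both libraries. In T cell-like cells Gbp4 had 107 and 114 CPM (0.939, 0.814 to 1.08), Gbp2 81.5 and 86.8 CPM (0.939, 0.797 to 1.11) and Gbp6 45.7 and 38.9 CPM (1.18, 0.930 to 1.49). Of the 9 members, 1 was lower past the fold, where 3.61% of genes were, and none higher, where 2.43% were. The lower one was Gbp2b at 9.41 and 15.9 CPM (0.594, 0.376 to 0.927). Regulatory T-like cells had a summed ratio of 0.976 (0.867 to 1.10). In NK cell-like cells 1 of 7 members was lower past the fold, where 3.85% of genes were, Gbp5 at 0.530 (0.317 to 0.873), and 1 was higher, where 2.93% were, Gbp9 at 46.6 and 24.6 CPM (1.89, 1.251 to 2.92). In B cell-like cells 1 of 6 was higher, where 1.80% of genes were, Gbp5 at 11.1 and 5.73 CPM (1.93, 1.08 to 3.66), which rested on 46 and 16 UMIs. Over the alternatives the ratio of Gbp9 in NK cell-like cells went as low as 1.13, with every barcode kept, and that of Gbp5 in B cell-like cells as low as 1.36, at a finer clustering. The lower Gbp5 ratio in NK cell-like cells reached 0.717 without the 5 cells with most member UMIs. None of the 6 was lower past the fold in B cell-like cells, where 4.65% of genes were. In a class with markers of innate lymphoid cells or gamma-delta T lymphocytes, with 75 and 123 cells, the sum was 273 and 216 CPM and no ratio was read for single members.

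Structural classes held endothelial transcripts as well as their own. The 6 endothelial genes used (Cdh5, Cldn5, Egfl7, Tmem100, Calcrl and Ramp2) summed to 5173 and 6742 CPM in pericyte or smooth muscle-like cells and to 1019 and 1904 CPM in alveolar type 2-like cells. Scaled by these genes, endothelial RNA would bring 62.5 and 129 CPM of Gbp4 into pericyte or smooth muscle-like cells, where 76.3 and 139 CPM were measured. In alveolar type 2-like cells it would bring 12.3 and 36.5 CPM, where 8.61 and 41.6 CPM were measured. In T cell-like cells it would bring 1.29 and 3.40 CPM of Gbp4, against 107 and 114 CPM measured, and in neutrophil-like cells 1.23 and 3.47 CPM against 2.30 and 8.32 CPM. In 18 of the 92 pairs such RNA could make up at least 50% of the level in 1 library or both, among them all 9 pairs of pericyte or smooth muscle-like cells and 5 of the 6 of alveolar type 2-like cells. Without these 18 pairs, 24 of 74 were lower past the fold and 2 higher, a setting added after the values were seen. Over all 114953 measured pairs of gene and class, 5.38% were lower and 2.43% higher. No share of all genes was computed with pairs of this kind left out.

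**Figure D5:**
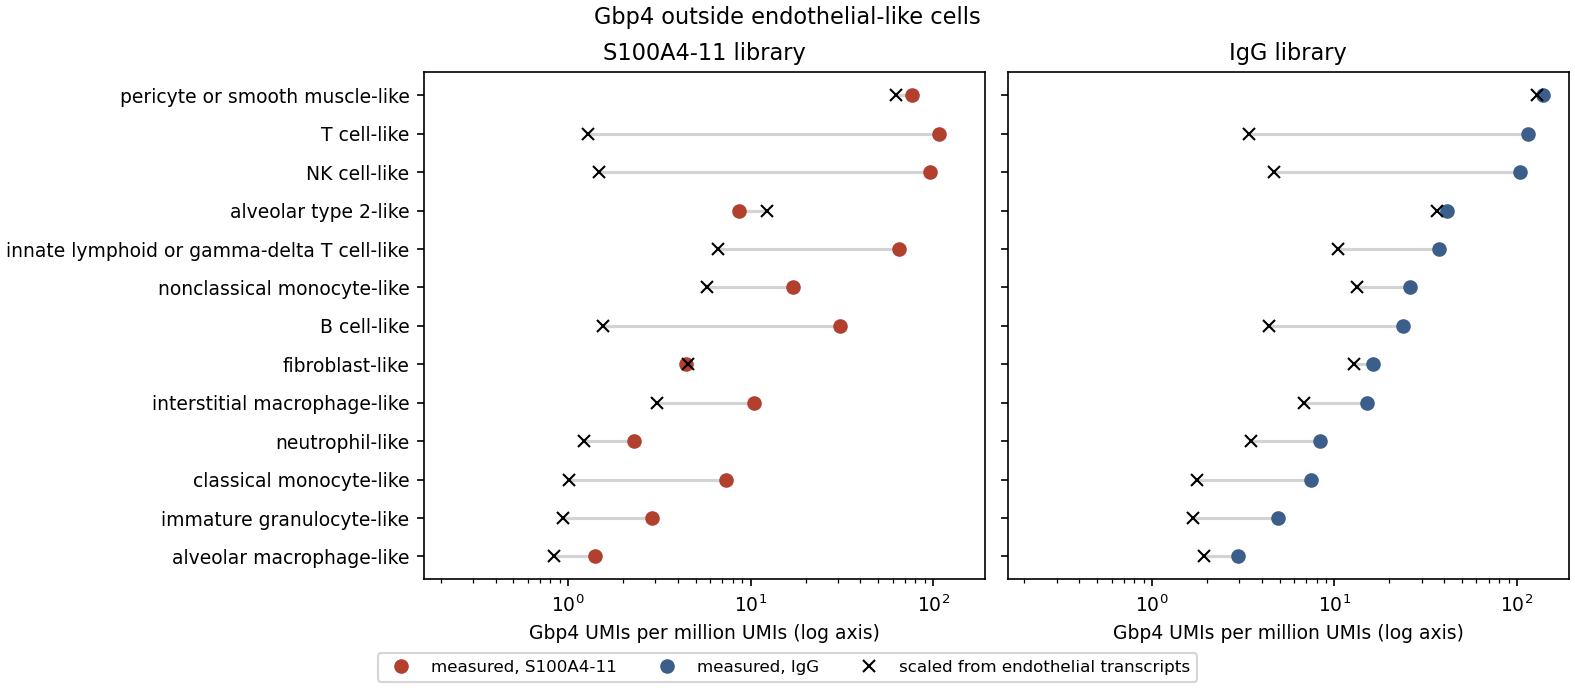
Gbp4 level in 13 classes other than endothelial-like, in UMIs per 1000000 UMIs on a log axis, in the S100A4-11 library (left) and the IgG library (right); filled circles are measured levels and crosses the level scaled from 6 endothelial genes found in the class. Circle and cross nearly meet in pericyte or smooth muscle-like, alveolar type 2-like and fibroblast-like cells and lie far apart in T and NK cell-like cells.

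With that in view, alveolar type 2-like cells had the lowest ratio of the family, 0.346 (0.279 to 0.424), with sums of 56.5 and 164 CPM. All 6 measured members were lower past the fold, in a class where 16.3% of 10022 measured genes were, and none higher, where 2.78% were. Gbp4 had 8.61 and 41.6 CPM (0.207, 0.116 to 0.344) and Gbp2 11.8 and 30.2 CPM (0.392, 0.239 to 0.615). The airway secretory gene Scgb1a1 stood at 1261 CPM with S100A4-11 and 32609 CPM with IgG in the same class. The family sum in alveolar type 2-like cells had a ratio of 0.314 (179 and 377 cells) without cells that drew at least 1% of their UMIs from Scgb1a1 and a pair of other airway genes, and was 0.555 with doublets kept. In pericyte or smooth muscle-like cells 4 of 9 members were lower past the fold, where 5.19% of genes were, and none higher, where 3.18% were. In fibroblast-like cells 3 of 8 were lower, where 5.74% were, and none higher, where 2.09% were. Fibroblast-like Gbp2, at 48.7 and 56.4 CPM, had a ratio of 0.864 (0.714 to 1.04).

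Interferon genes around the family were read by lists, in 3 classes. In endothelial-like cells 4.00% of all measured genes were lower past the fold and 1.40% higher. Of 6 immunity-related GTPases 1 was lower, with a median log2 ratio of -0.40. Iigp1 had 113 and 160 CPM (0.705, 0.663 to 0.750) and Irgm1 50.2 and 60.3 CPM (0.833, 0.757 to 0.917). Of 16 interferon-gamma targets 2 were lower and 1 higher, with a median of -0.27. B2m, the MHC class I light chain, had 1476 and 1839 CPM (0.803, 0.789 to 0.817), whereas Psme1, a proteasome activator subunit, had 382 and 379 CPM (1.01, 0.973 to 1.05). None of the 15 type I interferon targets passed the fold, and their median was -0.03. Bst2, a restriction factor that tethers virions, had 409 and 423 CPM (0.969, 0.936 to 1.002) and Isg15 133 and 145 CPM (0.919, 0.866 to 0.976).

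Of 13 receptor and signalling genes in endothelial-like cells none passed the fold, and the median was -0.16. Irf1, a transcription factor that induces Gbp genes, had 288 and 397 CPM (0.725, 0.698 to 0.754) and the feedback inhibitor Socs3 303 and 361 CPM (0.840, 0.808 to 0.873). Of 8 inflammasome genes 1 was lower and none higher, with a median of 0.02. Il1b, the cytokine that inflammasomes process, had 253 and 243 CPM (1.04, 0.997 to 1.09), and Gsdmd, the pore protein of pyroptosis, 57.9 and 54.5 CPM (1.06, 0.966 to 1.17).

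In neutrophil-like cells 5.62% of all measured genes were lower past the fold and 2.13% higher. The type I targets were the list with most members past it, 7 of 14 lower and none higher, at a median of -0.51. The 2 with most UMIs were not among those 7, with Isg15 at 1780 and 2020 CPM (0.881, 0.862 to 0.901) and Rtp4 at 272 and 326 CPM (0.836, 0.791 to 0.883). Of 3 measured immunity-related GTPases 1 was lower, Igtp at 18.1 and 34.0 CPM (0.533, 0.434 to 0.651), and Irgm1 had 21.6 and 29.1 CPM (0.741, 0.608 to 0.900). Interferon-gamma targets had 2 of 12 lower and a median of -0.22, with B2m at 650 and 707 CPM (0.919) and Cd274, which encodes PD-L1, at 165 and 190 CPM (0.871). None of the 13 receptor and signalling genes and 7 inflammasome genes passed the fold, at medians of -0.03 and 0.10. Socs3 had 561 and 558 CPM (1.01) and the kinase gene Jak1 263 and 275 CPM (0.957). Il1b had 26168 and 22890 CPM (1.14) and the inflammasome sensor gene Nlrp3 1682 and 1467 CPM (1.15).

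In classical monocyte-like cells 2.46% of all measured genes were lower past the fold and 2.35% higher. Of 14 type I targets 3 were lower, at a median of -0.34, with Irf7 at 240 and 284 CPM (0.845) and Bst2 at 141 and 178 CPM (0.792). None of 13 interferon-gamma targets passed the fold, at a median of -0.18, with B2m at 1119 and 1187 CPM (0.943) and the immunoproteasome gene Psmb8 at 280 and 330 CPM (0.848). Of 13 receptor and signalling genes 1 was higher, at a median of 0.00, with the receptor gene Ifngr1 at 505 and 549 CPM (0.919) and Socs3 at 333 and 345 CPM (0.965). Irgm1 had 26.7 and 32.5 CPM (0.823) and Igtp 14.7 and 13.95 CPM (1.05), the 2 immunity-related GTPases measured. Of 8 inflammasome genes none passed the fold, at a median of -0.10, with Il1b at 5089 and 5511 CPM (0.923) and Nlrp3 at 332 and 353 CPM (0.941).

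Of 9 interferon genes, Ifng, which encodes interferon-gamma, was the member with at least 50 UMIs in a class, and that in T and NK cell-like cells. It had 70.2 and 54.5 CPM in T cell-like cells (1.29, 1.06 to 1.57) and 271 and 238 CPM in NK cell-like cells (1.14, 0.986 to 1.32).

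Dissociation stress genes and transcripts of other cells were read beside these ratios. In endothelial-like cells all 18 genes of a dissociation stress list were below 1, where 53.0% of measured genes were. Of the 18, 6 were lower past the fold, where 4.00% of genes were, and none higher, where 1.40% were. The list had a median log2 ratio of -0.53 and sums of 7048 and 9753 CPM. Its 2 genes with most UMIs there, Jun and Junb, had ratios of 0.842 and 0.762. In neutrophil-like and classical monocyte-like cells the same list had medians of 0.03 and 0.08, with 4 and 1 of 18 genes lower past the fold. Of all measured genes 5.62% and 2.46% were that much lower. None of the list was higher past the fold in either class, where 2.13% and 2.35% of genes were. Junb had ratios of 1.09 and 1.07 in these classes, beside Dusp1 at 1.07 in neutrophil-like and Zfp36 at 1.01 in classical monocyte-like cells. Transcripts of other cells differed between the libraries. Scgb1a1 was lower with S100A4-11 in 14 of 14 classes, Sftpc in 13 of 13 classes other than its own, and S100a8 and S100a9 in 8 of 12. In T cell-like, fibroblast-like, interstitial macrophage-like and nonclassical monocyte-like cells S100a8 and S100a9 had ratios above 1. The interval included 1 for S100a9 in T cell-like cells (1.01, 0.931 to 1.09). It also did for S100a8 in nonclassical monocyte-like cells (1.05, 0.983 to 1.12). Scgb1a1 stood at 4.59 and 162 CPM and Sftpc at 76.5 and 223 CPM in neutrophil-like cells, and S100a8 at 89.4 and 212 CPM in B cell-like cells but 278 and 215 CPM in T cell-like cells and 1229 and 725 CPM in fibroblast-like cells. The part of the stress genes or of these transcripts in the Gbp ratios was not tested.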

How the data were processed

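Cell suspensions were made into 10x Genomics 5′ V2 libraries and sequenced on a DNBseq instrument, per the labels' protocols. One protocol text speaks of tumour tissue where the sample labels say lung. The deposited matrices hold UMI counts per gene and cell barcode made with Cell Ranger 7.1.0 on mm10, per the submitters' processing notes, and how multi-mapped reads were treated is not given in the sources used here. From these counts, barcodes with under 200 genes (101 in S100A4-11, 67 in IgG) or over 15% mitochondrial UMIs (40 and 59) were left out, as were doublets called with Scrublet in scanpy 1.11.5 (615, 4.97%, and 627, 4.39%). Cells were clustered jointly (2000 variable genes without the members, 30 principal components, 15 neighbours, Leiden at resolution 1 with leidenalg 0.10.2, Python 3.11.15). Clusters were named from marker lists by a rule set after the clusters were seen, and 5 of 36 stayed unnamed.

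UMIs were summed per class and library and divided by the class total. Poisson, binomial and conditional binomial intervals are exact (scipy 1.17.1), cover counting error only and say nothing of animals. The median log2 ratios used a pseudocount of 0.5 UMI. The interval and ratio code was tested on simulated data. TMM scaling came from edgeR 4.0.16 in R 4.3.3. The genes named were all 9 members, from each list the 2 genes with most UMIs in the 3 classes whose lists are described (for the interferon genes, in each class where one was measured), and the 3 genes most like each member that had at least 50 CPM in a class. Gbp10 was read as a sharer of reads, and Sftpc, Scgb1a1, S100a8, S100a9 and the 6 endothelial genes as checks of RNA from other cells. The members and lists were chosen with earlier results of these data known. Alternatives in scaling, cell weights, doublets, filters, clustering, low counts and depth are described in the closing section. The EYFP row of the matrices held 0 UMIs and was not used.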

Additional observations from a re-analysis of the deposited data

Results flagged for a closer look

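Gbp5 in B cell-like cells stood out because its ratio was 1.93, from 46 UMIs with S100A4-11 and 16 with IgG, while it was lower past 1.5-fold in other classes. Gbp9 in NK cell-like cells stood out in the same way, with a ratio of 1.89 from 79 UMIs with S100A4-11 and 34 with IgG. Neither difference between classes was tested. Over the alternatives the ratio of Gbp5 in B cell-like cells was 1.36 (Leiden resolution 2) to 2.07, and that of Gbp9 in NK cell-like cells was 1.13 (every barcode kept) to 1.96.

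An unnamed cluster outside the classes held the family at 828 CPM in 200 IgG cells. Only 3 cells of it were from the S100A4-11 library, with 436 CPM from 16 UMIs, so no ratio was read. Its Gbp4 level with IgG was 311 CPM. In airway epithelial-like cells, which had too few cells to be read, the family had 41 UMIs in 20 S100A4-11 cells and 25 UMIs in 33 IgG cells, a ratio of 4.34.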

How the results depend on the processing

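No paired analysis was possible because each group has 1 library, and for the same reason no library could be left out. The family sum in endothelial-like cells had ratios of 0.689 to 0.720 over its alternatives, in classical monocyte-like cells 0.625 to 0.737 and in neutrophil-like cells 0.600 to 0.707. For neutrophil-like cells the ratio was 0.667 with doublets kept, 0.671 with every barcode kept, 0.638 with at least 500 genes per cell and 0.707 with each library clustered alone. Pairs of member and class higher past 1.5-fold numbered 1 with every barcode kept, at Leiden resolution 0.5, at resolution 2 and with each library clustered alone. Of the 36 lower pairs, 14 stayed past the fold in all their alternatives, and of the 2 higher pairs 0 did. The lower pairs numbered 26 with each library clustered alone and 44 at a minimum of 1 UMI in each library. At a minimum of 200 UMIs, 17 were lower and 0 higher, and at 1 UMI in each library 5 were higher. The number of pairs read changes with the minimum. No share of all genes was computed in these settings, so their counts have no background and were not compared with the 36. Ratios of shares of cells with a UMI after thinning each cell to 500 UMIs were 0.682 for Gbp4 in endothelial-like cells, 0.651 for Gbp2 in neutrophil-like cells and 1.24 for Gbp2 in classical monocyte-like cells. Gbp3 in alveolar macrophage-like cells turned to 1.23 with every cell weighing the same. The cause was not tested in any of these. Among the other planned values 1248 stayed within their counting interval and 49 did not. Leaving out barcodes found in both libraries moved none of 107 values beyond it. Gbp2 in classical monocyte-like cells and Gbp5 in neutrophil-like cells, both near 1.5-fold, fell short of it in that setting. Classical monocyte-like cells formed no class at resolution 0.5, nor immature granulocyte-like cells with at least 500 genes per cell, and those alternatives gave no value there. Depth limits members with few UMIs, Gbp6 and Gbp8 in myeloid classes above all.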
